A study of Homo sapiens with 27 samples.

Results

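The genes described here belong to the insulin-like growth factor (IGF) axis: the binding proteins IGFBP2, IGFBP3, IGFBP4 and IGFBP5, the receptors IGF1R, IGF2R and INSR, and the adaptors IRS1 and IRS2. They were chosen around IGFBP3, which was picked because reads ending in the 10 kb beyond its annotated end were more frequent after CPSF1 knockdown in all 3 cell lines. The other 8 genes were added as relatives in the same pathway and not for their values. All 9 genes were present in each of 4 count tables, as 9 of 19540 genes for 3′ UTRs, 20216 for introns, 20268 for coding sequence (CDS) and 20266 for the 10 kb downstream regions.

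The measurements were made by poly(A)-ClickSeq (PAC-seq), in which each read marks the point where a transcript joins its poly(A) tail. There were 27 libraries from 3 human prostate cancer cell lines, with 3 biological replicates for each of 9 groups. LNCaP cells depend on androgen, LNCaP95 cells were derived from them and tolerate its withdrawal, and 22Rv1 cells are hormone-insensitive. In each line the groups were CTRL sh, CPSF1 sh1 and CPSF1 sh2, that is, cells carrying a lentiviral non-silencing hairpin or either of 2 hairpins against CPSF1, a subunit of the complex that recognises the poly(A) signal and directs cleavage of the transcript. All groups, controls included, were infected, selected with puromycin, expanded and grown for 72 h with 10% FBS, and LNCaP95 medium lacked phenol red. The hairpins lowered CPSF1 without removing it, and each line had a single control hairpin.

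IGF1 and IGF2 signal through IGF1R, insulin signals through INSR, and IGF2R clears IGF2 by carrying it to lysosomes. The IGF binding proteins hold the ligands outside the cell and can limit or prolong their action, and IGFBP3 is the main carrier of IGFs in blood. Activated IGF1R and INSR phosphorylate IRS1 and IRS2, which recruit PI3K and so switch on AKT and mTOR, a route to growth and survival that is long studied in prostate epithelium.

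Libraries held 3452413 to 12425417 counted reads over the 4 tables (median 8182050), and the 10 kb table was the shallowest with 170330 to 728430. Levels below are RPM, the reads of a gene scaled to 1000000 reads counted in all 4 tables of a library. Reads mark transcript ends and not their length, so RPM was not divided by length, and levels are compared between samples and not between genes. The targeted gene was checked first. CPSF1 3′ UTR reads were at 65.6 to 78.7 RPM in LNCaP controls and 29.4 to 46.2 RPM in the 6 knockdown libraries, at 41.2 to 61.7 and 19.3 to 32.8 RPM in LNCaP95, and at 76.9 to 90.4 and 44.1 to 57.4 RPM in 22Rv1. The groups did not overlap in any line, and the edgeR log2 fold changes were -1.19 (adjusted p = 8.28e-05), -1.05 (adjusted p = 0.000298) and -0.73 (adjusted p = 0.0163). The CPSF1 response did not differ past the threshold between 22Rv1 and LNCaP (line-by-knockdown term 0.48, SE 0.259, edgeR adjusted p = 0.317) or LNCaP95 (0.335, SE 0.261, adjusted p = 0.455). All 8 luminal prostate markers were detected, at a summed 1382 to 5552 RPM. Summed markers of basal cells were at 0 to 3.11 RPM, of fibroblasts at 3.31 to 25.5, of endothelium at 0 to 1.92 and of leukocytes at 0.635 to 13.6 RPM. In the LNCaP95 set 1 CPSF1 sh1 library, replicate 2, was most like the CPSF1 sh2 libraries downstream. It correlated with them at 0.446 to 0.453 and with the other CPSF1 sh1 libraries at 0.143 to 0.268. These are Pearson correlations over 9389 genes of the 10 kb table after subtracting the mean of the 9 LNCaP95 libraries. Replicate 3 also lay nearer CPSF1 sh2 (0.188 to 0.215) than its own group (0.143 to 0.178). In the 3′ UTR that held for replicate 3 and not for replicate 2. In 22Rv1, CPSF1 sh1 replicates 2 (0.139 to 0.169 against 0.001 to 0.083) and 3 (0.175 to 0.197 against 0.083 to 0.108) did so downstream. IGFBP3 values of LNCaP95 that include CPSF1 sh1 replicate 2 are given with and without it. So are values of the other genes where leaving it out gained or lost a call.

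The poly(A) signal at each gene's annotated end is the sequence that CPSF reads, so it is shown for the genes with the clearest changes. The windows below are 30 bases of the gene's own strand, 5′ to 3′, from the GRCh37 genome, with the hexamer AATAAA or ATTAAA in capitals.
IGFBP3, chr7:45951958-45951987, minus strand: ttataaatagtaAATAAAgtttttaccatt
IGFBP2, chr2:217529127-217529156, plus strand: cttttgcataagATTAAAggaaggaaaagt
IGFBP5, chr2:217536832-217536861, minus strand: aagcatttatttAATAAAgttatgcattca
IGF1R, chr15:99507727-99507756, plus strand: tggtttaagttaAATAAAataattctgtat
INSR, chr19:7112267-7112296, minus strand: attaaaattctgATTAAAttatctgagaat
IRS1, chr2:227596034-227596063, minus strand: aacaaactgccaATTAAAttttgcggagac
IRS2, chr13:110406193-110406222, minus strand: catatgcaataaAATAAAgtacattattta
IGF2R also held AATAAA, and IGFBP4 held neither hexamer in the 50 bases searched before its annotated end. The hexamers began 19 to 27 bases before the annotated ends. Of 19540 annotated ends, 59.4% held AATAAA in the same 50 bases, and 72.9% held AATAAA or ATTAAA. IGFBP2, INSR and IRS1 thus carried the weaker of the common signal forms, ATTAAA, at their annotated ends. These are matches to letters on the gene's strand and not measured poly(A) sites.

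Downstream of IGFBP3 the counted region was chr7:45941650-45951649 on the minus strand, starting 300 bases beyond the annotated end at 45951949 because the 3′ UTR region was extended by that length. No other annotated gene lay in it. It held 19 matches to AATAAA, more than 90.7% of the 15662 downstream regions of full length (median 9), with an A+T content of 61.4% against a median of 56.0%. At least 1 match was found in 97.5% of those regions, so a match alone sets nothing apart. The first match lay 2009 bases beyond the annotated end.
IGFBP3 first downstream match, chr7:45949923-45949952, minus strand: cactttaggaaaAATAAAaatcaccattgt
The counts give 1 total for the whole 10 kb, so which of these positions the reads ended at is not resolved here. For the other genes the matches in the downstream region numbered 29 for IGF1R, 13 for IRS1, 7 for IRS2, 6 for INSR, 5 for IGFBP2, 4 for IGFBP5, 3 for IGFBP4 and 2 for IGF2R. Some are overlapping copies in a repeat, as at chr15:99515586-99515618 for IGF1R and chr2:227589014-227589034 for IRS1. The numbers are therefore not numbers of separate signals.

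**Figure D1:**
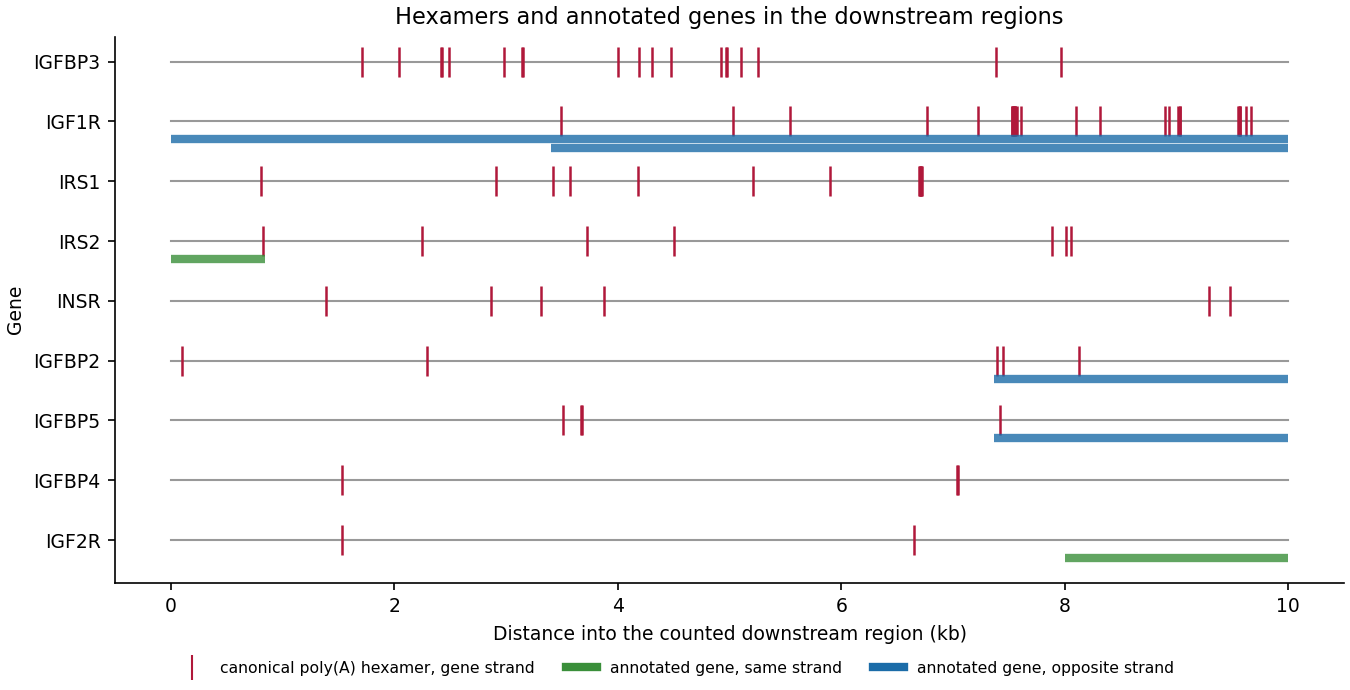
Map of the 10 kb downstream region counted for each gene (x axis, distance in kb from the start of the region along the gene's strand), with each AATAAA match as a tick and annotated genes on either strand as bars below the line. The region starts 300 bases beyond the annotated 3′ UTR end, except for IGF2R, whose region starts farther on, at chr6:160534839. IGFBP3 holds 19 matches and no other gene, IGF1R 29 matches over genes of the opposite strand, IGF2R 2 matches, and the short bar of IRS2 is its own longer annotated end.

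IGFBP3 had almost no reads in the downstream region of control cells and had them in every knockdown library. In LNCaP, the 3 CTRL sh libraries held 0 reads each, the CPSF1 sh1 libraries 22, 20 and 21, and the CPSF1 sh2 libraries 31, 16 and 10. In LNCaP95, the CTRL sh libraries held 1, 0 and 0 reads, the CPSF1 sh1 libraries 54, 802 and 63, and the CPSF1 sh2 libraries 523, 781 and 687. In 22Rv1, the CTRL sh libraries held 0 reads each, the CPSF1 sh1 libraries 18, 16 and 39, and the CPSF1 sh2 libraries 164, 130 and 104. Every knockdown library lay above every control of its line. IGFBP3 was selected on this contrast, so these counts describe the selection and carry no test. A count of 0 allows up to 3 reads in a library. Against that floor per library, mean RPM after knockdown was at least 8.26-fold higher in LNCaP (2.99 ± 1.21 RPM, SD, n = 6) and at least 13.3-fold higher in 22Rv1 (7.71 ± 5.81 RPM, n = 6). In 22Rv1 the bound was 4.32-fold with CPSF1 sh1 and 22.2-fold with CPSF1 sh2. In LNCaP95, 1 control read stood against 2910 knockdown reads, a depth-scaled ratio of 1663 with an exact conditional interval of 298 to 65710 that covers counting error only. The LNCaP95 knockdown mean was 68.1 ± 47.2 RPM, and 61.6 ± 49.7 RPM without CPSF1 sh1 replicate 2, which held 100 RPM where the other CPSF1 sh1 libraries held 6.82 and 7.69 RPM and the CPSF1 sh2 libraries 95.3 to 102 RPM.

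**Figure D2:**
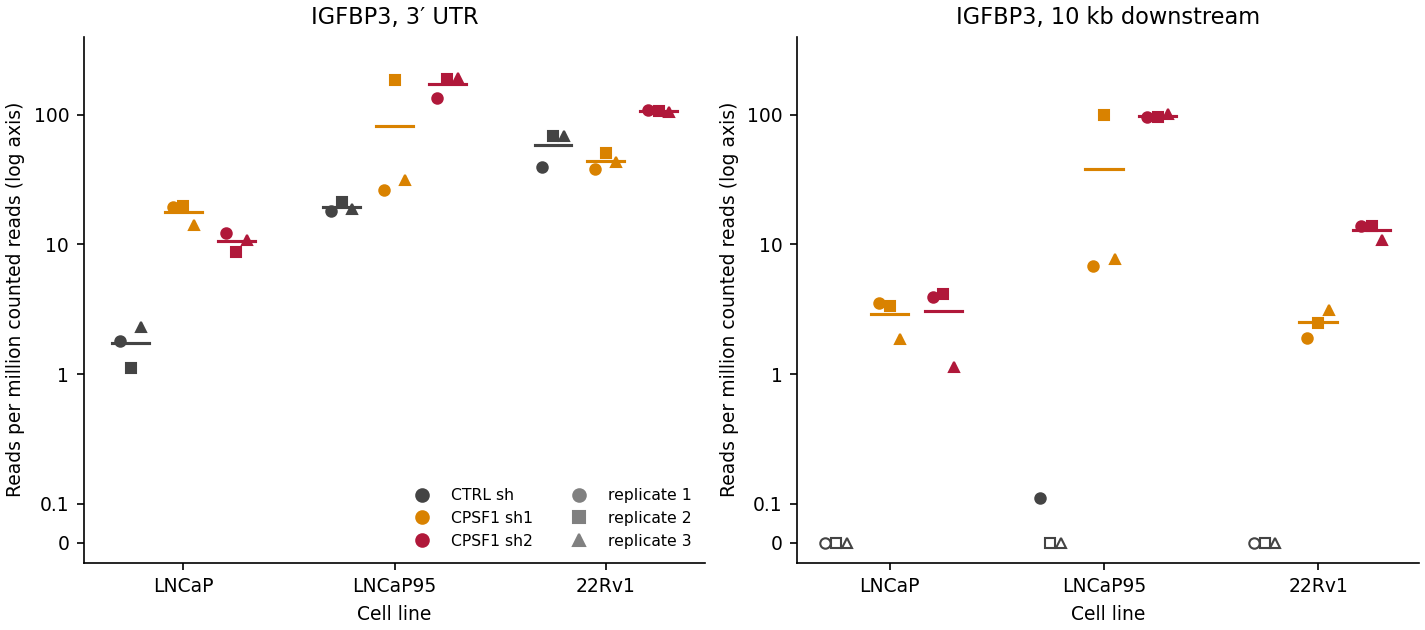
IGFBP3 RPM in each library, for the 3′ UTR and the 10 kb downstream region, by cell line and hairpin (y axis, RPM, log scale above 0.1, 1 point per library, lines at group means, open points at the foot of the axis stand for 0 reads). Control libraries held 0 or 1 downstream reads, and CPSF1 sh1 replicate 2 of LNCaP95 sits among the CPSF1 sh2 libraries.

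The 3′ UTR of IGFBP3 (chr7:45951649-45954418) did not follow 1 pattern in the lines. In LNCaP it held 14, 10 and 19 reads with CTRL sh, 121, 119 and 158 with CPSF1 sh1, and 97, 34 and 95 with CPSF1 sh2. In LNCaP95 the counts were 164, 163 and 162, then 209, 1486 and 257, then 736, 1560 and 1298. In 22Rv1 they were 137, 395 and 579, then 358, 324 and 538, then 1291, 993 and 1011. In RPM, the knockdown groups lay above the controls in LNCaP and LNCaP95, with means 8.15-fold and 6.57-fold those of the controls. Without CPSF1 sh1 replicate 2 the LNCaP95 mean was 115 RPM rather than 127 RPM, or 5.96-fold that of the controls. In 22Rv1 the CPSF1 sh1 libraries (37.9 to 50.3 RPM) overlapped the controls (39.7 to 68.6 RPM), and the CPSF1 sh2 libraries (106 to 110 RPM) lay above both. The 22Rv1 mean was thus 0.745-fold of control with CPSF1 sh1 and 1.82-fold with CPSF1 sh2. Introns of IGFBP3 held 0 to 15 reads and its CDS 0 to 3 in the 27 libraries.

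As a share of IGFBP3 reads in the 3′ UTR and downstream region together, downstream reads made up 0% in LNCaP controls, 13.8% ± 1.89 after CPSF1 sh1 and 21.9% ± 11.4 after CPSF1 sh2 (SD over 3 libraries). In LNCaP95 the shares were 0.202% ± 0.350, 25.1% ± 8.64 and 36.5% ± 4.41, and for CPSF1 sh1 the mean was 20.1% without replicate 2, which held 35.1% where the others held 19.7% and 20.5%. In 22Rv1 they were 0%, 5.42% ± 1.16 and 10.7% ± 1.22. Most IGFBP3 reads therefore still ended in the 3′ UTR in each group, while the downstream share was above that of every control in all 18 knockdown libraries.

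**Figure D3:**
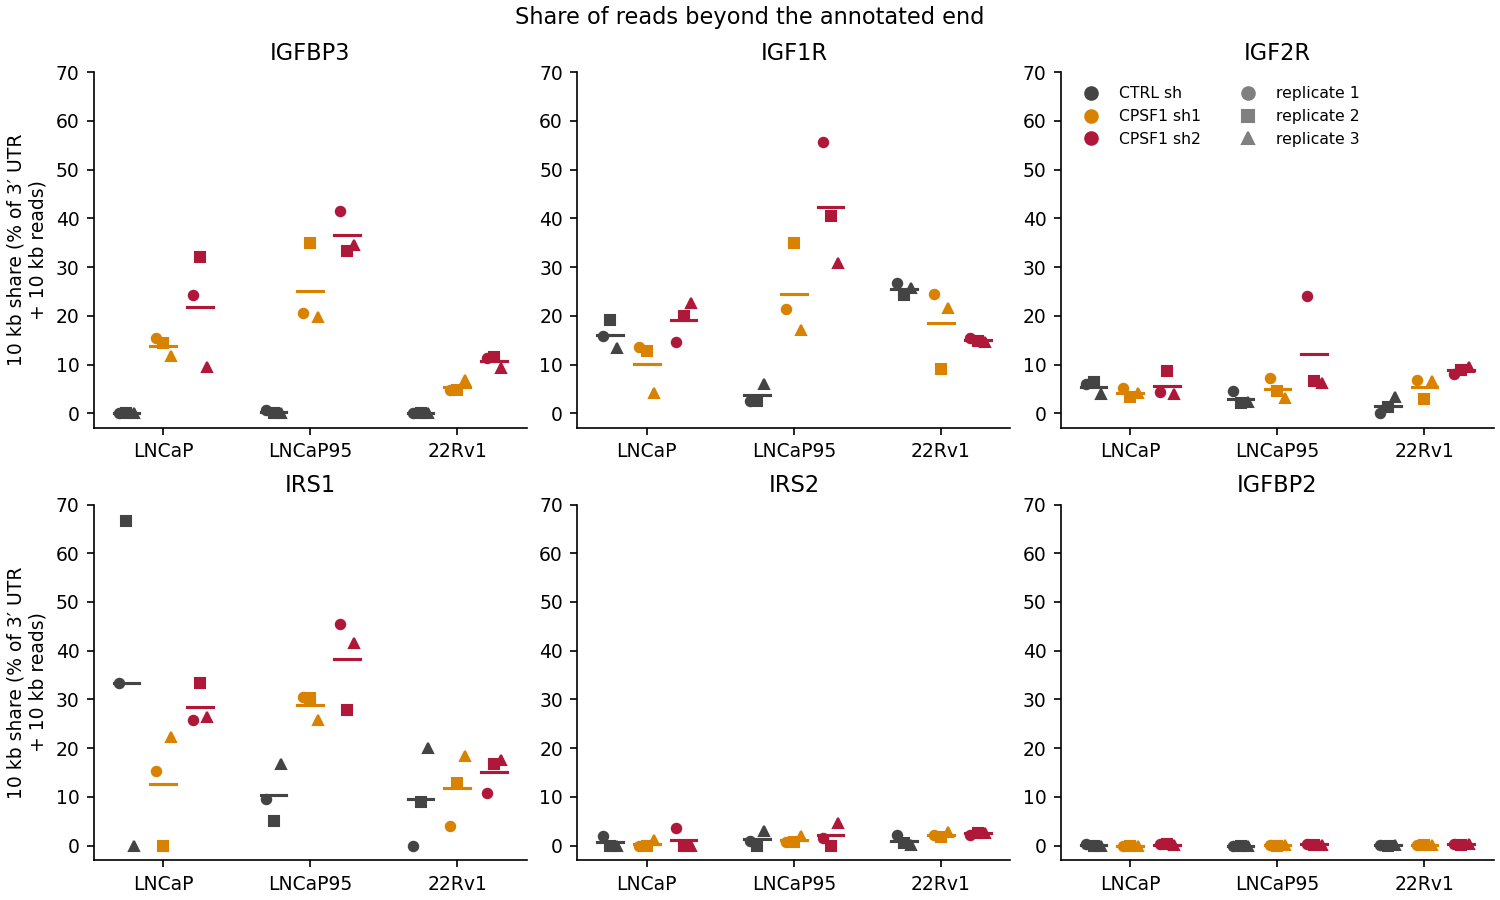
Share of the reads of 6 genes that ended in the 10 kb downstream region, out of those in the 3′ UTR and downstream region together (y axis, percent, 1 point per library, bars at group means), by line and hairpin. IGFBP3 rises from 0.202% or less to group means of 5.42% to 36.5%, and IGF1R in LNCaP95 from 3.71% to 24.5% and 42.4%.

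Whether the hairpins differed was not part of the selection and was tested with edgeR as CPSF1 sh2 against CPSF1 sh1, over all 9 genes. In 22Rv1, IGFBP3 was the only gene called of 7 tested in the 3′ UTR (0.0522% of all genes called) and of 8 tested downstream (0.174% called). The log2 difference in favour of CPSF1 sh2 was 1.14 in the 3′ UTR (SE 0.142, edgeR adjusted p = 0.00469) and 2.11 downstream (SE 0.296, adjusted p = 1.18e-08). The 3′ UTR call was lost without CPSF1 sh1 replicate 3 (edgeR adjusted p = 0.0740), CPSF1 sh2 replicate 1 (0.0628) or CPSF1 sh2 replicate 2 (0.0582), with log2 differences of 1.10 to 1.16. In LNCaP95, no gene was called of 8 tested in the 3′ UTR (0% of all genes) or of 9 downstream (0.00676%), with 0 and 1 at an unadjusted p under 0.05 and none by DESeq2. The IGFBP3 differences there were 0.96 (SE 0.509, edgeR adjusted p = 0.778) and 1.04 (SE 0.336, adjusted p = 0.994). Without CPSF1 sh1 replicate 2 they were 2.61 (SE 0.175) and 3.33 (SE 0.291). That library was set apart for its likeness to the CPSF1 sh2 libraries, so values without it do not test a difference between the hairpins. In LNCaP, none was called of 7 tested in the 3′ UTR (0.0363% of all genes) or of 6 downstream (0.119%), with 1 in each at an unadjusted p under 0.05 and none by DESeq2. The IGFBP3 differences in LNCaP were -0.58 (SE 0.230) and -0.16 (SE 0.476). CPSF1 3′ UTR RPM in 22Rv1 was 50.6 ± 5.92 with CPSF1 sh1 and 49.9 ± 5.29 with CPSF1 sh2. In LNCaP95 it was 22.35, 19.29 and 30.63 with CPSF1 sh1 and 32.77, 29.05 and 26.82 with CPSF1 sh2. In LNCaP it was 38.36, 31.1 and 36.92, then 29.83, 46.15 and 29.44. Whether CPSF1 levels bear on the IGFBP3 differences between hairpins was not tested.

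For the other 8 genes the knockdown was tested with edgeR on 3 control against 6 knockdown libraries per line, adjusting over all genes. In the 3′ UTR, 4 of 6 tested genes were called in LNCaP (18.3% of all genes), 4 of 7 in LNCaP95 (30.5%) and 0 of 6 in 22Rv1 (1.47%). In 22Rv1, 2 had an unadjusted p under 0.05 and DESeq2 called none. In introns the counts were 2 of 6 in LNCaP (14.3% of all genes), 1 of 7 in LNCaP95 (23.8%) and 1 of 6 in 22Rv1 (4.38%). In the CDS none was called of 2, 2 and 1 tested (7.1%, 12.5% and 0.972% of all genes), with 0, 1 and 0 at an unadjusted p under 0.05 and none by DESeq2. Downstream, 0 of 5 were called in LNCaP (14.7% of all genes), 1 of 8 in LNCaP95 (27.7%) and 0 of 7 in 22Rv1 (10%), and 1 and 2 reached an unadjusted p under 0.05 in LNCaP and 22Rv1, with none by DESeq2. The genes left out were below a mean of 2 CPM (the same scaling within the reads of 1 table). Of the called genes, IRS1 in the LNCaP 3′ UTR and IGFBP5 in LNCaP95 introns had controls that averaged below it. Those genes entered the counts only through their knockdown libraries. Reads come from whole cultures, where fewer cells of a type and less RNA per cell cannot be told apart.

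Library sizes were taken per table, so a downstream fold change is relative to the other downstream regions. The median log2 fold change of all tested downstream regions was 0.13, 0.22 and 0.185 for LNCaP, LNCaP95 and 22Rv1. When the 4 tables were summed for library size and took the 3′ UTR scaling factors, it was 0.62, 1.11 and 0.73. On that scale, here called summed library sizes, no gene of 5 was called in LNCaP (18.3% of all genes), 4 of 8 were called in LNCaP95 (37.2%) and 2 of 7 in 22Rv1 (19.2%).

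**Figure D4:**
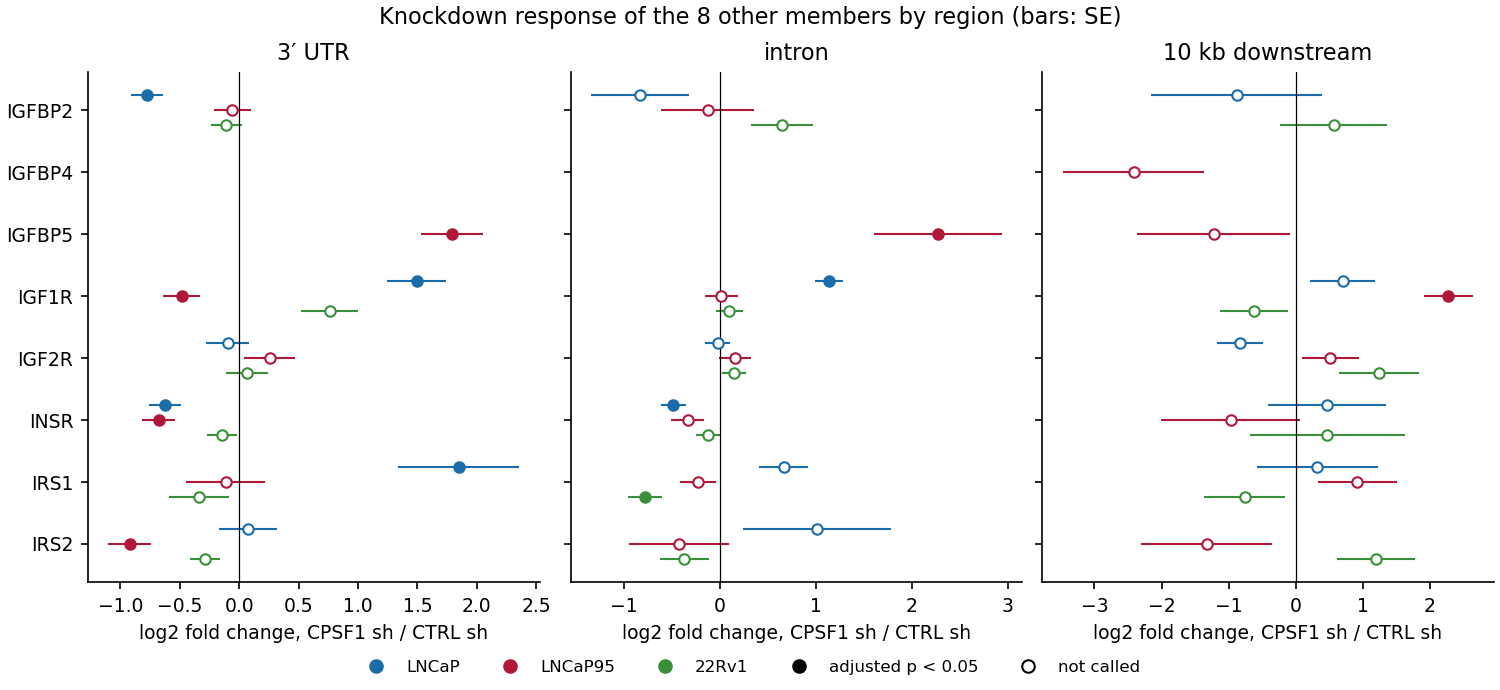
Log2 fold change of knockdown over control (x axis) with SE for each gene other than IGFBP3, by region and cell line, filled where the edgeR adjusted p was below 0.05. The gains of IGF1R and IRS1 in the LNCaP 3′ UTR, of IGFBP5 in the LNCaP95 3′ UTR and of IGF1R downstream in LNCaP95 lie farthest to the right among the filled points of the 3′ UTR and downstream regions; IGFBP2 downstream in LNCaP95 and IGFBP5 downstream in 22Rv1, with controls at 0 reads, are left out.

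Among the binding proteins, IGFBP2, which binds both IGFs and is abundant in prostate tumours, fell in LNCaP and passed the test in neither of the other lines. Its 3′ UTR held 1988, 2580 and 2644 reads in LNCaP controls, 1150, 966 and 2391 with CPSF1 sh1, and 1378, 782 and 1510 with CPSF1 sh2. In RPM the controls (254 to 323) lay above the knockdown libraries (161 to 213), and the log2 fold change was -0.78 (edgeR adjusted p = 0.000606, SE 0.135). In LNCaP95 the means were 239, 235 and 236 RPM for CTRL sh, CPSF1 sh1 and CPSF1 sh2, and in 22Rv1 522, 478 and 496 RPM, with log2 fold changes of -0.06 (SE 0.156) and -0.11 (SE 0.130) that did not pass. The IGFBP2 downstream region held 0 to 17 reads. It faces IGFBP5 on the opposite strand, and each of their downstream regions overlaps 2631 bases of the other gene.

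IGFBP5, a binding protein that also attaches to the extracellular matrix, was seen mainly in LNCaP95, with 0 to 6 reads in the 3′ UTR of any LNCaP or 22Rv1 library. In LNCaP95 its 3′ UTR held 26, 25 and 22 reads with CTRL sh, 97, 97 and 71 with CPSF1 sh1, and 51, 96 and 49 with CPSF1 sh2. All knockdown libraries lay above all controls in RPM, and the log2 fold change was 1.79 (SE 0.263, edgeR adjusted p = 6.53e-05). Its introns held 0 to 5 reads in controls and 6 to 26 after knockdown (log2 fold change 2.27, SE 0.667, edgeR adjusted p = 0.0111). The intron controls averaged below the 2 CPM filter, so IGFBP5 introns were tested only through the knockdown libraries, and the call is descriptive. It was lost without CTRL sh replicate 2 (1.77, adjusted p = 0.0552), with CPSF1 sh1 alone and with over 2 CPM required in every library. Downstream, IGFBP5 held 0 to 4 reads per LNCaP95 library. IGFBP4, a binding protein that restrains IGF action and is cut by the protease PAPPA, was hardly detected. It had 0 to 3 reads in the 3′ UTR and 0 to 6 downstream in any library, and was tested only downstream in LNCaP95, where its log2 fold change was -2.42 (SE 1.06, adjusted p = 0.0569). Without CTRL sh replicate 1 or CPSF1 sh1 replicate 3 that value was -2.88 (adjusted p = 0.0335) or -2.68 (adjusted p = 0.0441).

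Among the receptors, IGF1R showed opposite 3′ UTR changes in LNCaP and LNCaP95. In LNCaP its 3′ UTR held 32, 55 and 26 reads with CTRL sh, 108, 116 and 140 with CPSF1 sh1, and 139, 36 and 79 with CPSF1 sh2. The controls (3.18 to 6.15 RPM) lay below all knockdown libraries (9.01 to 19.3 RPM), and the log2 fold change was 1.49 (edgeR adjusted p = 0.000393, SE 0.248). Its introns also rose in LNCaP (1.14, SE 0.146, adjusted p = 1.2e-06), from 129 to 175 reads in controls to 133 to 399 in libraries of differing depth. In LNCaP95 the 3′ UTR counts were 343, 270 and 233 with CTRL sh, 253, 207 and 179 with CPSF1 sh1, and 101, 190 and 172 with CPSF1 sh2, for which the fold change was -0.48 on the log2 scale (SE 0.155, edgeR adjusted p = 0.0242). The LNCaP95 groups overlapped, at 26.9 to 37.7 RPM in controls and 18.6 to 31.9 RPM after knockdown. That call was lost without TMM scaling factors (-0.34, adjusted p = 0.1205), with CPSF1 sh1 alone (-0.34, adjusted p = 0.238) and without CTRL sh replicate 1 (-0.38, adjusted p = 0.147), CTRL sh replicate 2 (-0.48, 0.0576) or CPSF1 sh2 replicate 2 (-0.45, 0.0549). In 22Rv1 it was 0.76 (SE 0.240, adjusted p = 0.133), from 3.65 ± 0.609 RPM to 5.71 ± 1.30 and 6.57 ± 1.44 RPM (n = 3 each).

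Summed library sizes called 4 of 8 genes downstream in LNCaP95 and 2 of 7 in 22Rv1. With library sizes per table, IGF1R was the only gene of the 8 with a downstream gain past the threshold. The region chr15:99508059-99518058 on the plus strand held 9, 7 and 15 reads in LNCaP95 controls, 69, 111 and 37 with CPSF1 sh1, and 127, 129 and 77 with CPSF1 sh2. The groups did not overlap, and the log2 fold change was 2.28 (SE 0.369, edgeR adjusted p = 4.58e-07). Without CPSF1 sh1 replicate 2 it was 2.20 (adjusted p = 8.01e-07). In LNCaP the counts were 6, 13 and 4, then 17, 17 and 6, then 24, 9 and 23 (0.70, SE 0.485, adjusted p = 0.372). In 22Rv1 they were 4, 8 and 10, then 13, 4 and 23, then 16, 8 and 12 (-0.62, SE 0.505, adjusted p = 0.498). The downstream region overlaps the genes SYNM-AS1 and PGPEP1L on the opposite strand, whose reads the stranded counting assigns elsewhere.

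IGF2R and INSR differed from IGF1R. INSR 3′ UTR reads fell in LNCaP and LNCaP95. In LNCaP the counts were 345, 473 and 410 with CTRL sh, 232, 207 and 351 with CPSF1 sh1, and 275, 138 and 323 with CPSF1 sh2, or 44 to 52.9 RPM against 31.2 to 37.4 RPM (log2 fold change -0.62, SE 0.133, edgeR adjusted p = 0.00308). In LNCaP95 the counts were 601, 382 and 558, then 331, 304 and 287, then 208, 319 and 280, or 50 to 66.0 RPM against 35 to 41.8 RPM (-0.68, SE 0.140, adjusted p = 0.00135). Neither pair of groups overlapped. The LNCaP call was lost with CPSF1 sh2 alone (-0.52, adjusted p = 0.0610). INSR introns fell in LNCaP (-0.48, SE 0.129, adjusted p = 0.00972) and were at -0.34 in LNCaP95 (SE 0.174, adjusted p = 0.171), or -0.46 without CPSF1 sh1 replicate 2 (adjusted p = 0.020). In 22Rv1 the INSR 3′ UTR log2 fold change was -0.14 (SE 0.127). Downstream, INSR held 0 to 12 reads per library.

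The IGF2R 3′ UTR passed in no line, with log2 fold changes of -0.10 (SE 0.183), 0.26 (SE 0.217) and 0.06 (SE 0.175) in LNCaP, LNCaP95 and 22Rv1. Downstream in 22Rv1 it held 0, 2 and 7 reads with CTRL sh, 10, 4 and 17 with CPSF1 sh1, and 31, 22 and 28 with CPSF1 sh2. Its log2 fold change there was 1.24 (SE 0.598, edgeR adjusted p = 0.180), which passed with CPSF1 sh2 alone (1.74, adjusted p = 0.0398) and with summed library sizes (1.83, adjusted p = 0.0210). In LNCaP95 the downstream value was 0.52 (SE 0.424, adjusted p = 0.388), and 1.5 with summed library sizes (adjusted p = 0.00805). In LNCaP it was -0.83 (SE 0.339, adjusted p = 0.0838). Other transcripts of the same strand could add reads to the IGF2R downstream count, and their part in these values was not tested.

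Of the adaptors, IRS1 rose in the LNCaP 3′ UTR from few reads. The counts were 6, 2 and 4 with CTRL sh, 11, 11 and 28 with CPSF1 sh1, and 23, 4 and 14 with CPSF1 sh2, or 0.224 to 0.766 RPM against 1.04 to 2.90 RPM, with no overlap. The log2 fold change was 1.85 (SE 0.508, edgeR adjusted p = 0.0143). IRS1 controls averaged below the 2 CPM filter, so the gene was tested only through its higher knockdown libraries, and the call is descriptive. The call was lost with CPSF1 sh2 alone (1.85, adjusted p = 0.0658), without CTRL sh replicate 2 (1.44, adjusted p = 0.0952) and without CTRL sh replicate 3 (1.83, adjusted p = 0.0634). IRS1 3′ UTR values were -0.12 (SE 0.330) in LNCaP95 and -0.34 (SE 0.252) in 22Rv1. Its introns fell in 22Rv1 (-0.77, SE 0.178, adjusted p = 0.0105), a call lost with CPSF1 sh1 alone (-0.81, 0.0692) or CPSF1 sh2 alone (-0.72, 0.0501), without CTRL sh replicate 2 (-0.72, adjusted p = 0.0620) or replicate 3 (-0.57, 0.190), and with summed library sizes (-0.54, 0.148). Downstream in LNCaP95 IRS1 held 4, 2 and 6 reads with CTRL sh, 18, 10 and 17 with CPSF1 sh1, and 10, 17 and 10 with CPSF1 sh2. That was a log2 fold change of 0.92 (SE 0.591, adjusted p = 0.244), and of 1.78 with summed library sizes (adjusted p = 0.0140).

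IRS2, the adaptor whose gene is switched on in liver when insulin is low, fell in the LNCaP95 3′ UTR. The counts were 327, 223 and 189 with CTRL sh, 130, 135 and 103 with CPSF1 sh1, and 61, 131 and 145 with CPSF1 sh2, or 21.8 to 35.9 RPM against 11.2 to 21.5 RPM (log2 fold change -0.92, SE 0.178, edgeR adjusted p = 0.000778). Each of the 6 knockdown values was below the 3 control values. In LNCaP and 22Rv1 the values were 0.07 (SE 0.242) and -0.29 (SE 0.125, adjusted p = 0.297). Downstream in 22Rv1 IRS2 held 5, 3 and 1 reads with CTRL sh, 13, 9 and 28 with CPSF1 sh1, and 23, 20 and 23 with CPSF1 sh2. Its log2 fold change there was 1.19 (SE 0.582, adjusted p = 0.187), and 1.71 with summed library sizes (adjusted p = 0.0270). The Gencode annotation ends IRS2 843 bases inside this region, just beyond another AATAAA match.
IRS2 match at the longer end, chr13:110405047-110405076, minus strand: atcttttgaacaAATAAAatcagtgcaatt
Downstream IRS2 reads can therefore include a longer annotated form of its own 3′ UTR.

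The change in the ratio of downstream to 3′ UTR reads was tested in 1 model over both tables. In LNCaP, 0 of 5 genes were called (10.3% of all genes) and none reached an unadjusted p under 0.05. In LNCaP95, 2 of 7 were called (28%). IGF1R rose by 2.70 on the log2 scale (SE 0.440, edgeR adjusted p = 1.87e-05), with the downstream share of its reads at 3.71% ± 2.02 in controls, 24.5% ± 9.27 after CPSF1 sh1 and 42.4% ± 12.5 after CPSF1 sh2 (SD over 3 libraries). IGFBP5 fell (-3.03, SE 1.14, adjusted p = 0.0413) from 0 to 4 downstream reads per library, a call lost in 6 of the 9 fits that left out 1 library, with adjusted p up to 0.358 without CTRL sh replicate 1 and 0.0664 without CPSF1 sh1 replicate 2. Leaving out CPSF1 sh1 replicate 2, which held 0 IGFBP2 downstream reads, also gave IGFBP2 a call for the ratio (edgeR adjusted p = 0.0278). The controls held 0 reads there as well. IGFBP2 was thus tested only through its knockdown libraries, and nothing is concluded from that call. In 22Rv1, 0 of 6 were called (7.39%), with 2 at an unadjusted p under 0.05. These were IRS2 (1.53, SE 0.541, adjusted p = 0.0790) and IGF1R (-1.42, SE 0.595, adjusted p = 0.144), whose 22Rv1 share was 25.5% ± 1.22 in controls, 18.4% ± 8.22 with CPSF1 sh1 and 14.9% ± 0.392 with CPSF1 sh2. The ratio medians over all genes were 0.30, 0.53 and 0.33 in LNCaP, LNCaP95 and 22Rv1.

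Whether the lines responded differently was tested as a line-by-knockdown term over the 27 libraries. In the 3′ UTR, 4 of 7 genes differed between LNCaP95 and LNCaP (9.6% of all genes), namely IGFBP2, IGF1R, IRS1 and IRS2. Between 22Rv1 and LNCaP 1 of 7 differed (5.11%), IRS1, and between 22Rv1 and LNCaP95 2 of 7 (10.7%), IGF1R and INSR. Downstream none of 8 differed between LNCaP95 and LNCaP (2.45% of all genes) or between 22Rv1 and LNCaP (0.948%), with 3 and 1 at an unadjusted p under 0.05 and none by DESeq2 in either. Between 22Rv1 and LNCaP95 1 of 8 differed downstream (4.13%). It was IGF1R, whose downstream response was lower in 22Rv1 by 2.89 on the log2 scale, with a term of -2.89 (SE 0.625, edgeR adjusted p = 0.00114).

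Before knockdown the lines already differed in these genes, which was tested over the 9 control libraries for all 9 genes. LNCaP95 differed from LNCaP in 6 of 7 tested genes (39.3% of all genes), 22Rv1 from LNCaP in 5 of 7 (47.1%) and 22Rv1 from LNCaP95 in 5 of 7 (54.5%). IGFBP3 stood at 1.74 ± 0.603 RPM in LNCaP, 19.3 ± 1.76 in LNCaP95 and 58.9 ± 16.6 in 22Rv1 (SD, n = 3 each). Each step was past the threshold, with log2 differences of 3.14 for LNCaP95 over LNCaP (SE 0.260, edgeR adjusted p = 7.87e-08), 4.91 for 22Rv1 over LNCaP (SE 0.256, adjusted p = 1.72e-10) and 1.77 for 22Rv1 over LNCaP95 (SE 0.196, adjusted p = 9.07e-07). IRS2 took the same order, at 5.38 ± 1.11, 29.0 ± 7.08 and 97.5 ± 26.7 RPM, with differences of 2.09, 4.0 and 1.91 that all passed. IRS1 was lowest in LNCaP (0.493 ± 0.271 RPM) and did not differ past the threshold between LNCaP95 (4.2 ± 0.758) and 22Rv1 (6.71 ± 3.38), where the difference was 0.84 (SE 0.378, adjusted p = 0.0699).

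IGF1R was highest in LNCaP95, at 33.3 ± 5.70 RPM, and stood at 4.47 ± 1.52 in LNCaP and 3.65 ± 0.609 in 22Rv1. LNCaP95 exceeded LNCaP by 2.56 (SE 0.236, edgeR adjusted p = 2.99e-07), and 22Rv1 was below LNCaP95 with a difference of -3.02 (SE 0.256, adjusted p = 3.87e-08). LNCaP and 22Rv1, neighbours in that order, differed by -0.47 (SE 0.286, adjusted p = 0.194), or by -0.58 when all reads of the gene were summed (adjusted p = 0.00944). IGF2R ran the other way, at 57.1 ± 18.5 RPM in LNCaP, 40.8 ± 11.2 in LNCaP95 and 21.6 ± 6.31 in 22Rv1. Differences of -0.81, -1.54 and -0.73 passed. The last of these was lost without LNCaP95 CTRL sh replicate 1 (-0.63, adjusted p = 0.0549). IGFBP2 was highest in 22Rv1 (522 ± 22.0 RPM), then LNCaP (288.5 ± 34.6), then LNCaP95 (239 ± 31.6). Its LNCaP and LNCaP95 libraries overlapped in RPM, as did those of IGF2R, and all 3 IGFBP2 differences passed. INSR differed in none of the 3, at 49.0 ± 4.52, 60.1 ± 8.81 and 48.0 ± 1.22 RPM with differences between -0.18 and -0.03. Its RPM was higher in LNCaP95 than in LNCaP although the edgeR difference was negative. RPM takes no TMM factors, and dropping them shifted the median log2 difference of all genes between these lines by 0.214.

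**Figure D5:**
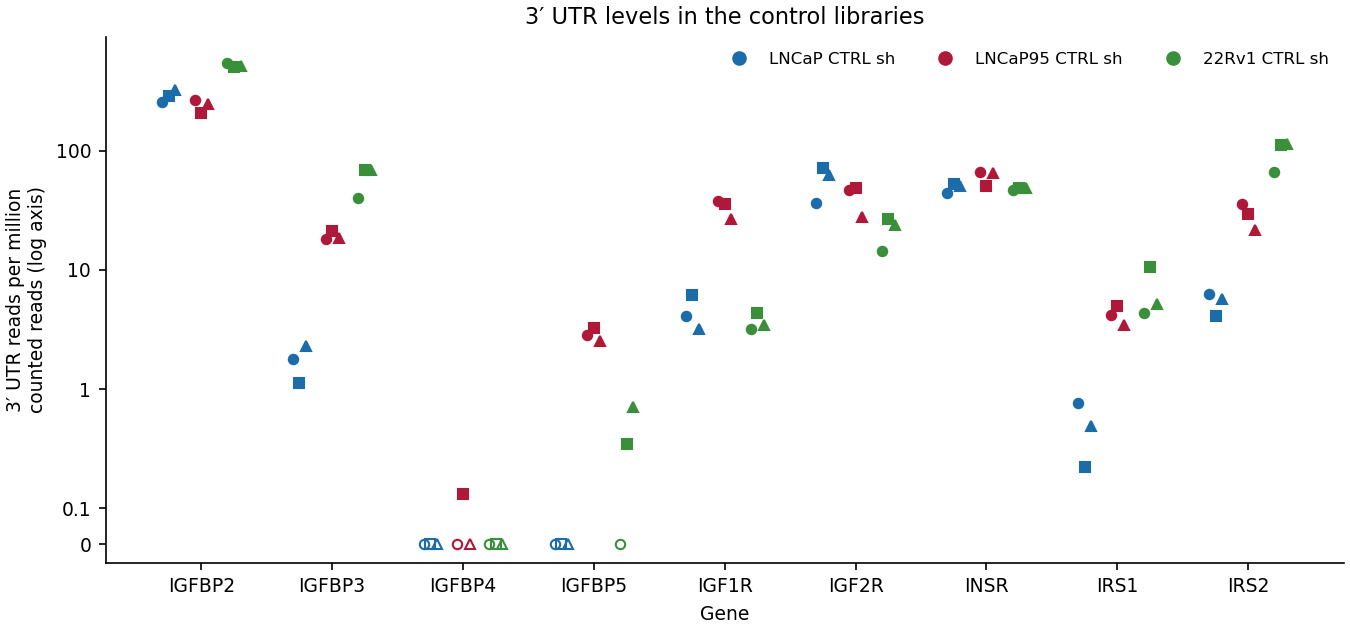
3′ UTR level of each gene in the CTRL sh libraries of LNCaP, LNCaP95 and 22Rv1 (y axis, RPM, log scale above 0.1, 1 point per library, open points at the foot of the axis for 0 reads). IGFBP3 and IRS2 step up from LNCaP to LNCaP95 to 22Rv1, IGF2R steps down, IGF1R peaks in LNCaP95 at 33.3 RPM, and the INSR group means lie between 48.0 and 60.1 RPM.

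A wider list of 46 other genes of the pathway, from ligands and carriers to PI3K, AKT, mTOR and AKT substrates, was described in the same fits. In the 3′ UTR, 3 of 34 tested genes rose and 5 fell in LNCaP, 3 rose and 5 fell of 36 in LNCaP95, and 1 rose of 34 in 22Rv1. The shares called were 23.5%, 22.2% and 2.94%, beside 18.3%, 30.5% and 1.47% of all genes. Their median log2 fold changes were -0.11, -0.10 and 0.06, against 0.015, 0.012 and -0.009 for all genes. Downstream, 2 of 29 rose and 1 fell in LNCaP, 5 rose and 3 fell of 35 in LNCaP95, and 3 rose of 28 in 22Rv1. These were 10.3%, 22.9% and 10.7% of the tested genes, beside 14.7%, 27.7% and 10% of all downstream regions. The downstream medians were -0.23, 0.92 and 0.21, against 0.13, 0.22 and 0.185. By the rule on genes called the same way in all 3 lines, the list named IGF1 and RPTOR. The share of all genes called alike in all 3 lines was not counted, so whether these are more than the background is not known. Their knockdown p-values below in the region that named them are the ones used to name them.

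IGF1, the ligand of IGF1R, rose in the 3′ UTR in each line. It held 12, 7 and 16 reads in LNCaP controls, 35, 23 and 61 with CPSF1 sh1, and 57, 31 and 47 with CPSF1 sh2. In LNCaP95 the counts were 52, 28 and 17, then 46, 133 and 79, then 51, 77 and 63, and in 22Rv1 28, 52 and 67, then 152, 85 and 227, then 192, 170 and 182. The log2 fold changes were 1.89 (SE 0.366, edgeR adjusted p = 0.00142), 1.39 (SE 0.354, adjusted p = 0.00630) and 1.04 (SE 0.184, adjusted p = 0.00797). Downstream of IGF1 there were 0 to 4 reads per library. RPTOR encodes the scaffold of mTOR complex 1, and its reads rose downstream in each line. In LNCaP95 they were 4, 1 and 15 with CTRL sh, 29, 97 and 51 with CPSF1 sh1, and 70, 92 and 109 with CPSF1 sh2. The log2 fold changes were 1.68 (SE 0.474, adjusted p = 0.00550), 2.61 (SE 0.424, adjusted p = 4.58e-07) and 1.52 (SE 0.449, adjusted p = 0.0135) in LNCaP, LNCaP95 and 22Rv1. Its 3′ UTR values were 0.18 (SE 0.158), -0.31 (SE 0.151) and -0.26 (SE 0.217) and did not pass. The RPTOR ratio of downstream to 3′ UTR reads passed only in LNCaP95 (2.97, SE 0.521, edgeR adjusted p = 4.96e-05). It did not pass in LNCaP (1.51, SE 0.509, adjusted p = 0.0523) or 22Rv1 (1.74, SE 0.572, adjusted p = 0.0573). Downstream control reads of RPTOR were 4, 8 and 4 in LNCaP and 1, 7 and 7 in 22Rv1.

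The downstream regions whose levels over the 27 libraries were most like that of IGFBP3, by Pearson's r of log2 CPM among 6660 regions, belonged to FOXJ2 (r = 0.936), SYT4 (0.935), CCT5 (0.928), KCTD20 (0.928) and DHX9 (0.919). The median r over all regions was 0.153. All these values share the same libraries, depth and knockdown groups, so they are a description. As for IGFBP3, few reads were seen in controls. The 3 LNCaP95 controls together held 1 read downstream of FOXJ2, 50 of SYT4, 1 of CCT5, 4 of KCTD20 and 10 of DHX9, and the 6 LNCaP95 knockdown libraries 247, 10388, 176, 523 and 653.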

How the data were processed

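Per the labels and the study's methods, total RNA from 27 cultures was made into PAC-seq libraries, and the authors deposited 4 tables of raw counts, 1 column per replicate and without normalization. Their reads were freed of poly(A) stretches with DPAC, aligned to GRCh37 with HISAT2 2.1.0 and counted on the gene's strand by the 3′-most base with featureCounts of Subread 2.0.3 (tool versions from the submitters' processing notes). Regions came from Ensembl protein-coding genes: 3′ UTRs extended by 300 bases, introns, CDS, and the 10 kb beyond the gene end without same-strand exons. Priming inside A-rich stretches can add reads to introns and downstream regions, and whether the step of DPAC that drops A-rich sites was applied to these tables is not given in the sources used here.

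Columns were matched to samples by title, with 0 columns left over. edgeR 4.0.16 (R 4.3.3) was used for a quasi-likelihood test on each table, with that table's library sizes and TMM factors, on genes with a mean above 2 CPM over the libraries in the fit, and p-values were adjusted over all tested genes by the Benjamini-Hochberg method at 0.05. The knockdown fits set 3 control against 6 knockdown libraries per line, as in the study's methods. SE is the size of the coefficient divided by the square root of F, and is left out where controls held no reads. The p-values measure the spread between these replicates. Intervals and the floor of 3 reads cover counting error only, since PCR copies were not separated. No 2 libraries of a group agreed within sampling noise (chi-square per degree of freedom 1.77 to 23.3).

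The genes and lists were chosen with earlier results of these data known. IGFBP3 was selected on its downstream knockdown contrast, so its knockdown values carry no test. The genes named are the 9, CPSF1, pathway genes called the same way in all 3 lines in the 3′ UTR or downstream table, and the 5 genes most like IGFBP3 downstream among those with at least 10 CPM in each line. A gene outside these is not reported here. Alternatives were DESeq2 1.42.0, other filters and scalings, each hairpin alone, a replicate block and leaving out each library. The models were tested on simulated data.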

Additional observations from a re-analysis of the deposited data

Results flagged for a closer look

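Knockdown responses that differed between cell lines, by the line-by-knockdown term of edgeR over 27 libraries, were found for 5 genes in 8 comparisons. For LNCaP95 against LNCaP, 4 of 7 tested genes were called in the 3′ UTR, beside 9.6% of all genes. For 22Rv1 it was 1 of 7 against LNCaP (5.11%) and 2 of 7 against LNCaP95 (10.7%). Downstream the same comparisons gave 0 (2.45%), 0 (0.948%) and 1 (4.13%) of 8. Each value below is the log2 response of the first line minus that of the second. In the 3′ UTR, IGFBP2 responded less negatively in LNCaP95 than in LNCaP (0.73, SE 0.212, adjusted p = 0.0242). IGF1R rose in LNCaP and fell in LNCaP95, a difference of -1.97 (SE 0.275, adjusted p = 1.06e-05). Its LNCaP95 groups overlapped in RPM, and the call for that fall was lost in several alternative fits. IRS1 differed by -1.97 (SE 0.575, adjusted p = 0.0225) between the same lines, from control libraries of 2 to 6 reads in LNCaP, and IRS2 by -1.0 (SE 0.261, adjusted p = 0.0123). IRS1 also differed between 22Rv1 and LNCaP, by -2.19 (SE 0.568, adjusted p = 0.0165). Between 22Rv1 and LNCaP95, IGF1R differed by 1.26 (SE 0.30, adjusted p = 0.00543) and INSR by 0.55 (SE 0.180, adjusted p = 0.0465), the INSR call being lost without TMM factors (adjusted p = 0.0733). Downstream, IGF1R differed between 22Rv1 and LNCaP95 by -2.89 (SE 0.625, adjusted p = 0.00114).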

How the results depend on the processing

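Over 30 comparisons, 317 of 361 alternative counts of called genes were within 1.5 times those reported. Of 2121 single-gene values, 2053 stayed on their side of the threshold, 34 lost and 34 gained a call, and 0 calls were reversed in direction. Values that were not called are not covered by that last count. Depth limits the downstream results: 206 of 216 values of the 8 genes other than IGFBP3 were below 30 reads, so small changes there could not be detected. The cause of the moved counts given here was not tested.

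With CPSF1 sh2 alone, the counts were 2 (reported 4) for the LNCaP 3′ UTR, 1 (2) for LNCaP introns, 2 (1) for LNCaP95 introns and 1 (0) for 22Rv1 downstream. With CPSF1 sh1 alone they were 0 (1) for introns of LNCaP95 and of 22Rv1 and 1 (2) for the LNCaP95 ratio. Requiring over 2 CPM in every library gave 0 (1) for LNCaP95 introns, 1 (0) for LNCaP downstream, 1 (2) for the LNCaP95 ratio and 1 (0) for the 22Rv1 ratio, and no filter gave 2 (1) for 22Rv1 introns. Summed library sizes gave 4 (1) for LNCaP95 downstream, 2 (0) for 22Rv1 downstream, 2 (0) for the 22Rv1 ratio, 0 (1) for 22Rv1 introns and 1 (0) for the downstream response of LNCaP95 against LNCaP. Without TMM factors the 22Rv1 ratio gave 1 (0) and the 3′ UTR response of 22Rv1 against LNCaP 2 (1). DESeq2 gave 4 (2) for the 3′ UTR response of 22Rv1 against LNCaP95.

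Leaving out 1 library gave 0 to 2 for introns of LNCaP95 (0 without CTRL sh replicate 2, 2 without CPSF1 sh1 replicate 2) and of 22Rv1 (0 without CTRL sh replicate 3), 1 to 2 for LNCaP95 downstream (2 without CTRL sh replicate 1 or CPSF1 sh1 replicate 3), 1 to 2 (reported 2) for the LNCaP95 ratio, 0 to 1 for the 22Rv1 ratio (1 without CTRL sh replicate 1), 0 to 1 for CPSF1 sh2 against CPSF1 sh1 in the LNCaP95 3′ UTR and downstream (1 without CPSF1 sh1 replicate 2) and 0 to 1 (reported 1) for the 22Rv1 3′ UTR. The line-by-knockdown terms were refitted without LNCaP95 CPSF1 sh1 replicate 2 only, an alternative added after seeing the data, which gave IRS2 a call between 22Rv1 and LNCaP95 (0.72, edgeR adjusted p = 0.0356).

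In no line did every same-number pair correlate above 0.1, so the numbers were not taken to pair the libraries. Of the 9 such pairs per line, 0 passed 0.1 downstream and 3 in the 3′ UTR, and those of 22Rv1 were all 3 pairs of CTRL sh with CPSF1 sh1 (0.118 to 0.392). A library correlated best with its own number in 2 to 6 of 9 cases per line and region, with 6 downstream in 22Rv1. With the number as a replicate block, the LNCaP95 ratio gave 1 (IGFBP5, adjusted p = 0.0517), the 3′ UTR response of 22Rv1 against LNCaP95 1 (INSR, 0.0823) and CPSF1 sh2 against CPSF1 sh1 downstream in LNCaP95 1 (IGFBP3, 2.09, adjusted p = 4.03e-07). The block changed no other call.

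Of 361 alternatives, 79 moved the count over all genes by more than 1.5 times. For LNCaP, LNCaP95 and 22Rv1, the knockdown counts ran over all alternatives from 1144 to 2639 (reported 2021), 1664 to 3714 (3437) and 3 to 387 (169) in the 3′ UTR, from 1075 to 2394 (1704), 1580 to 3103 (2973) and 136 to 684 (540) in introns, from 174 to 393 (348), 272 to 742 (614) and 6 to 88 (48) in the CDS, and from 530 to 1499 (970), 1548 to 4868 (2832) and 232 to 2562 (746) for the ratio. Downstream they ran from 2392 to 5500 (4099) in LNCaP95 and 617 to 2757 (1441) in 22Rv1. CPSF1 sh2 against CPSF1 sh1 gave 2 to 210 (4), 0 to 18 (0) and 0 to 82 (6) in the 3′ UTR and 1 to 26 (16), 0 to 8 (1) and 5 to 33 (25) downstream. Higher calls made up 64.7%, 63.5% and 72.0% downstream in LNCaP, LNCaP95 and 22Rv1, and 94.3%, 95.6% and 97.9% with summed library sizes. Dropping TMM factors shifted the 3′ UTR median by 0.11, 0.15 and 0.08, and summed sizes shifted the intron median by -0.28 in LNCaP and 0.20 in 22Rv1.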
